A study of Mus musculus with 9 samples.

Results

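The genes described are 10 members of the immediate early class, Egr1, Egr2, Egr3, Nr4a1, Nr4a2, Nr4a3, Atf3, Ier2, Btg2 and Zfp36. They were taken by gene symbol, and each matched 1 of the 55401 genes in the deposited count table. For 9 of them the positions of the GENCODE genes in GRCm38 are Atf3 at chr1:191170296-191218039, Btg2 at chr1:134075170-134079120, Egr2 at chr10:67535475-67542188, Egr3 at chr14:70077203-70082614, Ier2 at chr8:84661331-84662854, Nr4a1 at chr15:101254269-101274795, Nr4a2 at chr2:57106830-57124003, Nr4a3 at chr4:48045153-48086447 and Zfp36 at chr7:28376784-28380253. The table holds RNA-seq of 9 libraries from cultured neonatal mouse ventricular myocytes (NMVMs), heart muscle cells isolated from wild-type C57BL/6J mice 1 day after birth, with 3 libraries in each of 3 groups. Control cultures stayed in normal oxygen in complete medium, which was DMEM with 10% FBS. Hypoxia cultures were moved to DMEM without glucose or serum and kept for 6 h in a sealed chamber with an AnaeroPack-MIC. Hypoxia + rSRGN cultures were treated in the same way with recombinant serglycin (rSRGN), the core protein of a proteoglycan, in the medium. Low oxygen, loss of glucose and loss of serum came together and cannot be told apart in the comparison with control. The labels name no litter, culture date or library batch and do not say whether the 3 libraries of a group came from separate isolations, so the p-values measure the spread between these libraries, which may be technical.

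Immediate early genes are transcribed within minutes of a stimulus without the need for new protein, and most of their mRNAs are short-lived. Serum response factor (SRF) with its ELK partners, bound at CArG boxes, and CREB, bound at cAMP response elements (CREs), are the best-known routes to their promoters. Adding serum to starved cells is the classical stimulus, whereas here the serum was in the control medium and absent from the hypoxic medium. EGR1, EGR2 and EGR3 are zinc finger transcription factors that bind GC-rich sites, and NR4A1, NR4A2 and NR4A3 are orphan nuclear receptors that act without a known natural ligand. ATF3 is a stress-induced member of the ATF/CREB family that mostly represses transcription. IER2 is a small nuclear protein, BTG2 an antiproliferative partner of the CCR4-NOT deadenylase, and ZFP36 (tristetraprolin) an RNA-binding protein that speeds the decay of mRNAs with AU-rich elements.

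Promoter sequence is shown for 6 of the genes because the NR4A windows share a feature that few promoters have, and the other windows show how the Egr2, Zfp36 and Atf3 promoters differ from them. The sequences are the 250 bases before a RefSeq transcription start in GRCm38.p6, 5′ to 3′ on the strand of the gene. RefSeq windows are described for 7 of the 10 genes. Egr1 was left out of the search, and no window was found for Egr3 and Ier2. The RefSeq start lies inside the GENCODE gene for Nr4a1, Nr4a3, Egr2, Zfp36 and Atf3, whose annotated genes begin further upstream. Capitals mark the CRE core (TGACG on either strand) and CArG boxes. The windows are Nr4a1 (chr15:101266596-101266845, plus strand), Nr4a2 (chr2:57124004-57124253, minus strand), Nr4a3 (chr4:48045055-48045304, plus strand), Egr2 (chr10:67537619-67537868, plus strand), Zfp36 (chr7:28379229-28379478, minus strand) and Atf3 (chr1:191183334-191183583, minus strand).
Nr4a1: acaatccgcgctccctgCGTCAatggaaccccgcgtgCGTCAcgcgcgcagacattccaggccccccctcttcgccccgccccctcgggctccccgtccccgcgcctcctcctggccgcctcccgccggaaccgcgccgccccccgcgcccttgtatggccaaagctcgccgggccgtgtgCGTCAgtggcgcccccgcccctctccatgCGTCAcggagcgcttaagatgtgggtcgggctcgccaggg
Nr4a2: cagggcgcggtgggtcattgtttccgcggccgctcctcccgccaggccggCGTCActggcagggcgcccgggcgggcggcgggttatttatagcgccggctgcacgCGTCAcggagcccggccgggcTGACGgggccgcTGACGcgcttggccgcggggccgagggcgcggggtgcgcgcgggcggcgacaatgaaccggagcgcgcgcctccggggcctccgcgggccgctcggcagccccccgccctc
Nr4a3: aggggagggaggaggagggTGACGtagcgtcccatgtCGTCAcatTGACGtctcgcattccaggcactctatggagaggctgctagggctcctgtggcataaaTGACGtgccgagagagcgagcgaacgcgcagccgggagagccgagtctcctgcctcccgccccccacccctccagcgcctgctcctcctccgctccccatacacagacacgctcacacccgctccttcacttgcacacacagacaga
Egr2: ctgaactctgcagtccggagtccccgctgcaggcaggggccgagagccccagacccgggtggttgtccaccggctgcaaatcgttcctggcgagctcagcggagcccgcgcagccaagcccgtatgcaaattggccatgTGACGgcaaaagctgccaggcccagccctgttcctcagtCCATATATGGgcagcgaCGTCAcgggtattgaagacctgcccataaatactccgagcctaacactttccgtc
Zfp36: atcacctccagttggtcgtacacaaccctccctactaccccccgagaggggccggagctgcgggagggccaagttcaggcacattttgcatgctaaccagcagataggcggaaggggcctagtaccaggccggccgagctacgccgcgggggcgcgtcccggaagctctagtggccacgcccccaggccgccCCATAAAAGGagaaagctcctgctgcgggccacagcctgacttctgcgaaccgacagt
Atf3: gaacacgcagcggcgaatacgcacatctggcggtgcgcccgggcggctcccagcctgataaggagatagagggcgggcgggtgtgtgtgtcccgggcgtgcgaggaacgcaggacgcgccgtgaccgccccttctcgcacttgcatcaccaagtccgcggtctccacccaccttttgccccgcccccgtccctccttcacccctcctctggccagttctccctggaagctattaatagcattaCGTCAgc
Each of the 3 NR4A windows held 4 CRE cores. Of 32851 promoter windows in the table, 17.8% held at least 1 CRE core and 0.137% held at least 4. The Egr2 window held 2 CRE cores on either side of a CArG box, and the Zfp36 window held a CArG box 58 to 49 bases before the start (-58 to -49) and no CRE core. A CArG box was present in 1.47% of all windows. The Atf3 window held 1 CRE core, at -7 to -3, and the Btg2 window was the only one of these 7 genes with the full CRE, TGACGTCA (1.55% of all windows), whose letters contain the core on both strands. Egr2 has 5 RefSeq windows, of which 3 overlap and share the features shown, another has a CArG box alone and the remaining window has neither. The EGR motif GCGNGGGCG (4.70% of all windows) was found in the Nr4a1, Nr4a2, Btg2 and Zfp36 windows. The hypoxia response core ACGTG (16.6%) was found in the Nr4a3 window and in the Egr2 window that has neither feature. The AP-1 motif TGANTCA (6.75%) and the NR4A motif AAAGGTCA (1.34%) were found in no window of the 7 genes. All motifs were searched on both strands. These matches are descriptions of letters, and binding was not measured.

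All 10 genes passed the filter on low counts, with at least 30 fragments in every library. Levels are given as CPM (counts per 1e6 counted fragments) with TMM scaling of the library totals, which were 21669017 to 22781557 in control, 16583985 to 18148474 in hypoxia and 16640239 to 20826701 in hypoxia + rSRGN. A gene was called changed at an adjusted p below 0.05 in edgeR's quasi-likelihood test (Benjamini-Hochberg, 16762 genes tested) with a fold change of at least 1.5. Log2 fold changes are given ± their standard error. Markers of the labelled cell type were present in every library. The summed level of the 12 cardiomyocyte markers was 41310 to 51100 CPM in control, 3636 to 5649 CPM in hypoxia and 7128 to 7681 CPM in hypoxia + rSRGN, and all 12 were called lower in hypoxia than in control. The 10 fibroblast markers summed to 11380 to 13430, 22260 to 25010 and 25140 to 26150 CPM, with 8 of 10 called higher in hypoxia. The 10 endothelial markers summed to 81.7 to 112.3 CPM in control and 58.5 to 75.0 CPM in hypoxia, the 11 macrophage markers to 236.1 to 253.7 and 108.4 to 163.7 CPM, and the 8 smooth muscle and pericyte markers to 1829 to 2124 and 2189 to 2506 CPM. Of these lists 7, 10 and 2 genes were called lower, and 0, 1 and 2 higher, where 25.1% of all genes were called lower and 26.4% higher. The macrophage gene called higher was Cx3cr1, the fractalkine receptor, at 0.285 CPM in control and 114 CPM in hypoxia. It is named because its value was seen. Without it the macrophage markers summed to 236.0 to 253.0 CPM in control, 24.9 to 27.8 CPM in hypoxia and 29.8 to 36.0 CPM in hypoxia + rSRGN. The macrophage marker C1qa had 45 to 69 fragments per library in control and 0 or 1 in hypoxia. In hypoxia + rSRGN the endothelial, macrophage and smooth muscle lists summed to 60.1 to 72.1, 136.9 to 157.5 and 2005 to 2105 CPM. In bulk libraries, fewer cells of a type and less RNA per cell cannot be told apart, and the part of this shift in the results was not tested. Hypoxia replicate 2 stood apart from the other hypoxia libraries in 6 of the 10 genes, and hypoxia + rSRGN replicate 1 in 2. The fold changes of the genes they touch are also given without them.

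Hypoxia against control asks how these genes stood after 6 h of low oxygen without glucose and serum. Of the 10 genes, 8 were called higher and 0 lower (9 and 0 at an unadjusted p below 0.05 in edgeR, 8 and 0 called in DESeq2). Among all 16762 genes tested, 26.4% were called higher and 25.1% lower, and 12243 had an unadjusted p below 0.05 in either direction. Atf3, all 3 EGR genes, all 3 NR4A genes and Zfp36 rose, by 2.07-fold (Zfp36) to 37.0-fold (Atf3), and Ier2 and Btg2 were not called. The median log2 fold change of the 10 genes was 3.02, against 0.05 over all genes. In 9 of the 10 genes every hypoxia library was above every control library, which was so for 37.7% of all genes.

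**Figure D1:**
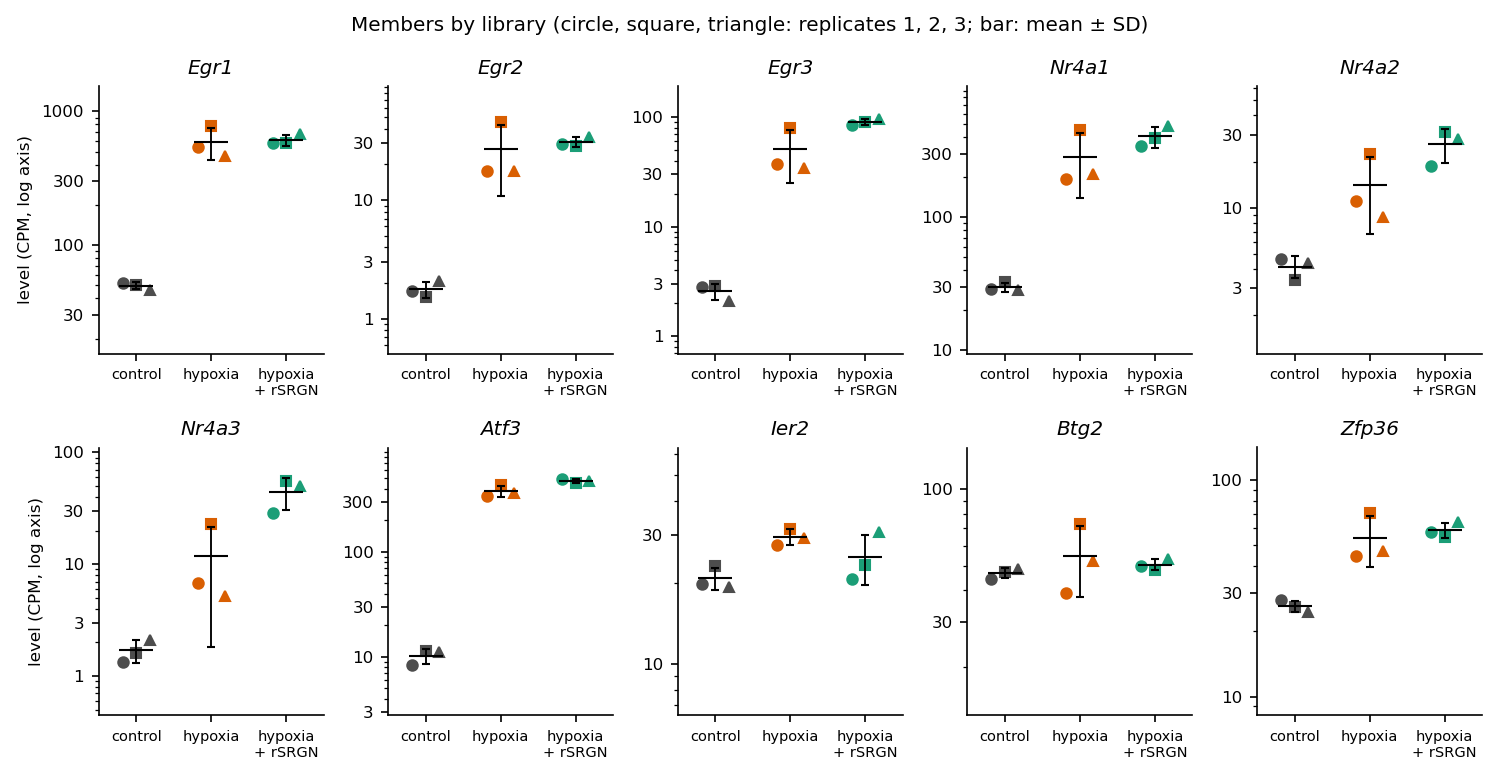
Level of each of the 10 genes in CPM (log axis, a scale of its own in each panel) in the 9 libraries, by group, with mean ± SD (n = 3). The square in hypoxia, replicate 2, is above the other hypoxia libraries in every panel, for example at 23.2 CPM for Nr4a3 against 6.88 and 5.21.

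The EGR genes rose together. Egr1 had 52.2, 50.4 and 46.4 CPM in the control libraries (replicates 1 to 3 in order, here and below) and 544, 776 and 463 CPM in hypoxia. It is the best-studied member of its family, and its log2 fold change was 3.58 ± 0.14 (adjusted p = 6.36e-16), an 11.96-fold rise. Egr2, known for its part in hindbrain patterning and myelination, had 1.71, 1.53 and 2.08 CPM in control and 17.7, 45.7 and 17.6 CPM in hypoxia, a log2 fold change of 3.92 ± 0.31 (adjusted p = 1.34e-10), or 3.31 without hypoxia replicate 2. Egr3, needed for muscle spindles, rose from 2.79, 2.85 and 2.08 CPM to 37.6, 80.3 and 34.1 CPM, a log2 fold change of 4.29 ± 0.26 (adjusted p = 1.80e-12). In all 3 genes the groups were far apart, and hypoxia replicate 2 was the highest library of its group. The 95% intervals of the log2 fold changes were 3.29 to 3.87 for Egr1, 3.29 to 4.56 for Egr2 and 3.75 to 4.83 for Egr3.

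Among the NR4A receptors, Nr4a1 (Nur77) was the most abundant. It had 28.9, 32.5 and 28.2 CPM in control and 192.7, 454.5 and 210.8 CPM in hypoxia, a log2 fold change of 3.26 ± 0.22 (adjusted p = 1.40e-11). Nr4a2 (Nurr1), required for midbrain dopamine neurons, had 4.67, 3.39 and 4.40 CPM in control and 11.1, 22.3 and 8.69 CPM in hypoxia. Its log2 fold change of 1.75 ± 0.26 (adjusted p = 3.85e-06) was the smallest of the family. Nr4a3 (Nor1) had 1.35, 1.63 and 2.13 CPM in control and 6.88, 23.2 and 5.21 CPM in hypoxia, a log2 fold change of 2.79 ± 0.44 (adjusted p = 6.80e-06), or 1.84 without hypoxia replicate 2. Every hypoxia library was above every control library for all 3 receptors, although the hypoxia libraries themselves spread 4.44-fold for Nr4a3 and 2.57-fold for Nr4a2.

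Atf3 had the largest fold change of the 10 genes. Its level was 8.36, 11.2 and 11.1 CPM in control and 342.9, 429.7 and 364.7 CPM in hypoxia, a log2 fold change of 5.21 ± 0.11 (adjusted p = 2.34e-19). This placed it at rank 147 by fold change among the 4432 genes called higher. Zfp36 rose from 27.9, 26.0 and 24.6 CPM to 44.7, 70.7 and 47.0 CPM, a log2 fold change of 1.05 ± 0.13 (adjusted p = 2.20e-07). Its exons share 125 bases with Gm44710, which had 25 to 73 fragments per library in control and hypoxia. The effect of this overlap on the count of Zfp36 was not tested. Ier2 had 19.8, 23.0 and 19.3 CPM in control and 27.6, 31.7 and 29.3 CPM in hypoxia. The groups did not overlap, but the log2 fold change of 0.51 ± 0.12 (adjusted p = 9.31e-04) was under the 1.5-fold limit. Btg2 had 44.5, 47.4 and 48.6 CPM in control and 39.0, 72.7 and 52.3 CPM in hypoxia, so the groups overlapped. Its log2 fold change was 0.22 with a 95% interval of -0.06 to 0.51 (adjusted p = 0.150), which leaves out a rise of 1.5-fold or more, and without hypoxia replicate 2 it was -0.04.

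Hypoxia + rSRGN against hypoxia asks what the added protein changed under the same deprivation. Of the 10 genes 3 were called higher, Nr4a3, Nr4a2 and Egr3, and 0 were called lower, while 2.27% of all genes were called higher and 0.859% lower. At an unadjusted p below 0.05 in edgeR 5 were higher and 0 lower, while 4927 of all 16762 genes were below it in either direction. The same background holds for such counts in the lists below. DESeq2 called only 1 of the 10 genes higher and 0 lower. The rise was 3.82-fold for Nr4a3, 1.86-fold for Nr4a2 and 1.78-fold for Egr3. Egr1, 11.96-fold higher in hypoxia than in control, had a fold change of 1.03 with rSRGN (95% interval 0.867 to 1.23). The median log2 fold change of the 10 genes was 0.26, against -0.03 over all genes. In Nr4a3, Egr3 and Atf3 every library with rSRGN was above every hypoxia library, which was so for 16.5% of all genes. Both comparisons use the hypoxia libraries. Of the 12 cardiomyocyte markers 10 were also called higher with rSRGN (median log2 fold change 0.78), of the 10 fibroblast markers 0 higher and 1 lower, of the endothelial and smooth muscle lists 1 and 2 higher, and of the macrophage markers 0, and their part in these results was not tested.

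**Figure D2:**
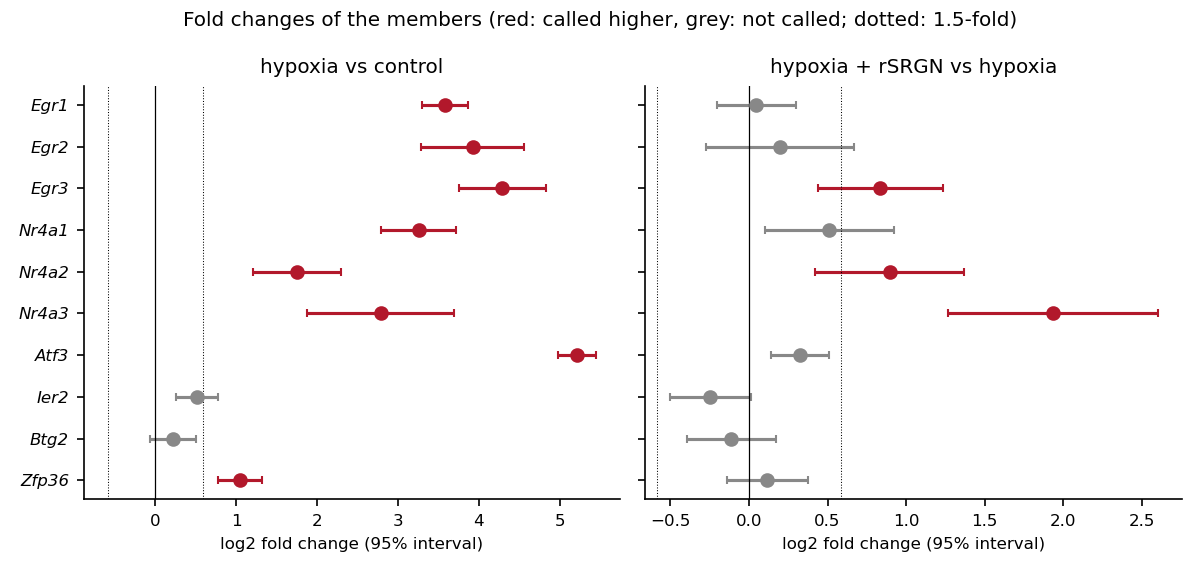
Log2 fold change of each gene with its 95% interval from edgeR's quasi-likelihood fit over the 9 libraries, for hypoxia against control and for hypoxia + rSRGN against hypoxia (axes differ). Red points are called higher, and dotted lines mark a 1.5-fold change. With rSRGN, Nr4a3, Nr4a2 and Egr3 are red and the Egr1 interval spans 0.

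With rSRGN, Nr4a3 had 28.6, 55.4 and 50.0 CPM, all above the highest hypoxia library (23.2 CPM). The log2 fold change was 1.94 ± 0.32 (adjusted p = 4.09e-04), rank 13 among the 381 genes called higher. Egr3 had 84.6, 89.8 and 96.3 CPM against 34.1 to 80.3 CPM in hypoxia, a log2 fold change of 0.83 ± 0.19 (adjusted p = 0.00479). Nr4a2 had 18.7, 31.0 and 28.3 CPM, and its lowest library was below hypoxia replicate 2 (22.3 CPM), so the groups overlapped. Its log2 fold change was 0.90 ± 0.23 (adjusted p = 0.00969). Nr4a1 had 343.5, 392.7 and 487.2 CPM, in overlap with hypoxia, and missed the threshold at a log2 fold change of 0.51 ± 0.20 (adjusted p = 0.0826). With the replicate number as a block it passed (0.59, adjusted p = 0.0180), although the numbers did not pair the libraries. In DESeq2, which called 3.19% of its genes higher, 1 of the 10 genes was called, Nr4a3, and Egr3 and Nr4a2 had adjusted p of 0.0560 and 0.0782.

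The remaining genes differed less between the hypoxic groups. Atf3 had 493.1, 454.2 and 478.1 CPM with rSRGN, all above hypoxia, but its 1.25-fold difference was under the limit (log2 fold change 0.33 ± 0.09, adjusted p = 0.0154). Egr1 had 580, 581 and 681 CPM, within the range of the hypoxia libraries. Egr2 had 29.9, 28.6 and 34.2 CPM, between the low pair of hypoxia libraries and replicate 2, with a log2 fold change of 0.20 (95% interval -0.27 to 0.67, adjusted p = 0.615). The groups also overlapped for Zfp36 (57.5, 54.6 and 64.0 CPM, log2 fold change 0.12, adjusted p = 0.581), Btg2 (50.1, 48.2 and 53.1 CPM, -0.11, adjusted p = 0.629) and Ier2 (20.7, 23.2 and 30.7 CPM, -0.25, adjusted p = 0.189). The 95% intervals of the log2 fold changes were -0.14 to 0.38, -0.40 to 0.17 and -0.50 to 0.01, so changes of these 3 genes beyond 1.5-fold in either direction lie outside them.

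Hypoxia replicate 2 stood apart in these genes. It was at least 1.5 times the higher of the other hypoxia libraries in 6 of the 10 genes, Egr2, Egr3, Nr4a1, Nr4a2, Nr4a3 and Zfp36, which was so for 50 of the 8693 genes that were at least as abundant as the lowest member (0.575%). Relative to the mean of the other libraries of its group it was 3.83 times as high for Nr4a3, 2.58 for Egr2, 2.25 for Nr4a1 and Nr4a2, 2.24 for Egr3, 1.54 for Egr1 and Zfp36, 1.59 for Btg2, 1.22 for Atf3 and 1.11 for Ier2. Of 40 other immediate early genes 10 met the same criterion in this library, Fosb, Junb, Ptgs2, Gem, Errfi1, Dusp2, Csrnp1, Phlda1, Plk2 and Trib1, and 0 in any other library. Its cardiomyocyte marker sum of 5099 CPM lay between those of replicates 1 and 3 (5649 and 3636 CPM). Its fibroblast and endothelial sums (22260 and 58.5 CPM) were the lowest of the group. Its macrophage sum was also the lowest (108.4 CPM against 163.7 and 149.4), and without Cx3cr1 it was in the middle (26.5 CPM). Its smooth muscle and pericyte sum (2506 CPM) was the highest. Its total count of 17434604 was the middle of the group. The part of these in its levels was not tested. The standard deviation of log2 CPM among the hypoxia libraries had a median of 0.56 over the 10 genes and 0.12 over the genes as abundant. In control these medians were 0.17 and 0.08, and in hypoxia + rSRGN they were 0.13 and 0.08. Without hypoxia replicate 2, the same number of genes, 8, was called higher in hypoxia than in control, with lower log2 fold changes. Nr4a3 was at 1.84 (2.79 with all libraries) and Egr2 at 3.31 (3.92), and both folds were thereby more than 1.5 times smaller. Egr3 was at 3.79, Egr1 at 3.34, Nr4a1 at 2.75, Nr4a2 at 1.25, Atf3 at 5.11, Zfp36 at 0.81 and Ier2 at 0.46. In hypoxia + rSRGN against hypoxia, 5 of the 10 genes were called higher without this library, where 2.84% of all genes were. The added calls were Nr4a1 (log2 fold change 1.02, adjusted p = 4.75e-07) and Egr2 (0.81, adjusted p = 4.85e-05), and Nr4a3 reached 2.89, Nr4a2 1.40 and Egr3 1.33. Egr1 (0.29), Atf3 (0.43), Zfp36 (0.36), Btg2 (0.15) and Ier2 (-0.19) were not called. Hypoxia + rSRGN replicate 1 stood apart on the low side for Nr4a2 and Nr4a3, 1.5 times or more under the lower of the other libraries of its group, which was so for 6 of the 8693 genes (0.069%). Without it the log2 fold changes with rSRGN were 2.17 for Nr4a3 and 1.08 for Nr4a2, and 3 of the 10 genes were called. Without rSRGN replicate 2, Nr4a2 was no longer called (0.75, adjusted p = 0.0727).

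**Figure D3:**
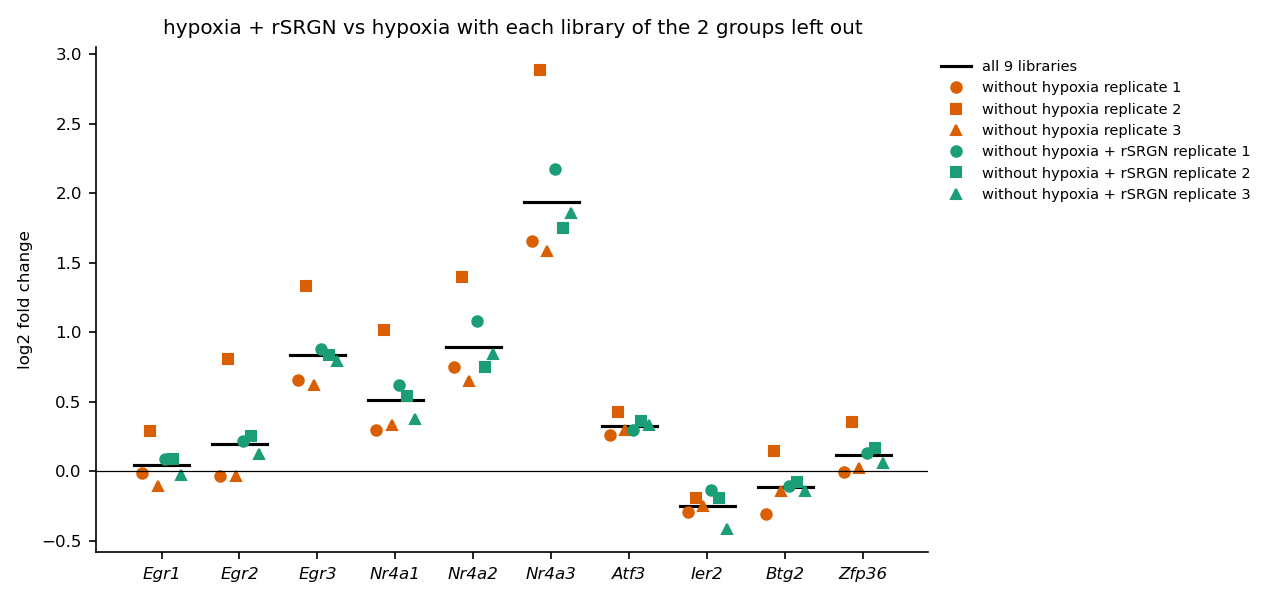
Log2 fold change of each gene in hypoxia + rSRGN against hypoxia with all 9 libraries (bar) and with each library of the 2 groups left out (points). The orange square, without hypoxia replicate 2, is the highest value for all genes but Ier2, and it moves Nr4a1 from 0.51 to 1.02 and Egr2 from 0.20 to 0.81.

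The proportions within a family do not depend on how libraries are scaled, so the ratio of each pair of EGR and of NR4A genes was also taken within every library, from CPM per kilobase of exon. These 6 pairs were chosen after the levels had been seen, and with 3 libraries against 3 the exact two-sided permutation test cannot go below p = 0.1. After adjustment over the 12 comparisons the ratios at this p had 0.171. In hypoxia + rSRGN against hypoxia, 4 of the 6 ratios did not overlap between the groups (exact p = 0.1 each). Among all 37779778 pairs of the 8693 genes at least as abundant as the lowest member, 43.3% of ratios did not overlap in this comparison, so the count of 4 is read as a description only. The gene with the higher number in its name was always the numerator, so 4 of the 6 ratios had Nr4a3 or Egr3 there. Those were the 4 without overlap, and they rest on the same values as the calls of these genes. Nr4a3 per Nr4a1 was 0.0209, 0.0299 and 0.0145 in hypoxia and 0.0488, 0.0827 and 0.0602 with rSRGN, 2.99-fold higher in the geometric mean. Nr4a3 per Nr4a2 was 0.419, 0.704 and 0.407 in hypoxia and 1.04, 1.21 and 1.20 with rSRGN, a 2.32-fold difference. Egr3 per Egr1 was 0.0703, 0.105 and 0.0750 in hypoxia and 0.149, 0.157 and 0.144 with rSRGN, a 1.82-fold difference, and Egr3 per Egr2 was 1.51-fold higher. Egr2 per Egr1 and Nr4a2 per Nr4a1 overlapped between these groups (exact p = 0.4 and 0.2). In hypoxia against control, Nr4a2 per Nr4a1 was 0.0901 to 0.140 in control and 0.0356 to 0.0499 in hypoxia, Egr3 per Egr1 was 0.0456 to 0.0575 and 0.0703 to 0.105, and Nr4a3 per Nr4a2 was 0.196 to 0.328 and 0.407 to 0.704, each without overlap (exact p = 0.1). The other 3 ratios overlapped, whereas 81.7% of all these gene pairs did not overlap in this comparison.

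**Figure D4:**
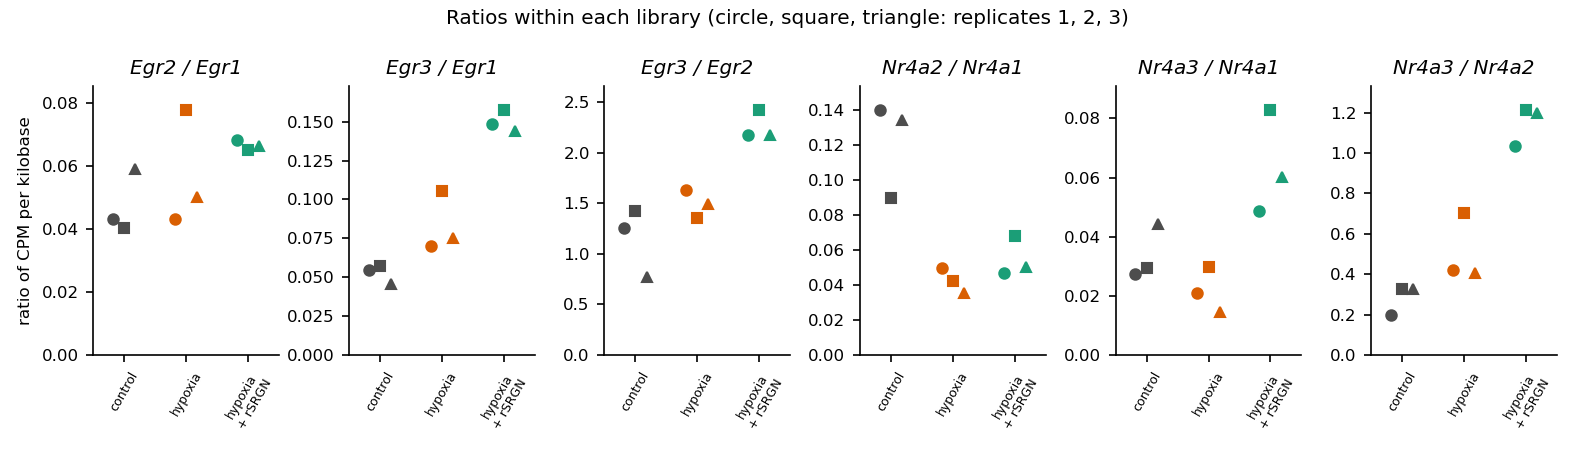
Ratio of CPM per kilobase between members of one family within each library (linear axes from 0). Nr4a3 and Egr3 take a larger share relative to their relatives in the 3 libraries with rSRGN than in any hypoxia library, for example 1.04 to 1.21 against 0.407 to 0.704 for Nr4a3 per Nr4a2.

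The order of levels per kilobase of exon differed between the groups. The length is that of all annotated exons of a gene together, which can exceed that of the transcript present. For Zfp36 it is 3470 bases, the full span of the annotated gene. The order of genes within a group is therefore approximate, also where libraries do not overlap. In control, Btg2 was the highest at 17.1 ± 0.754 CPM per kilobase (SD, n = 3), followed by Ier2 (13.6 ± 1.33), Egr1 (11.1 ± 0.665), Nr4a1 (8.51 ± 0.661), Zfp36 (7.54 ± 0.466) and Atf3 (4.75 ± 0.757). Nr4a2 (1.02 ± 0.167), Egr3 (0.583 ± 0.0969), Egr2 (0.522 ± 0.0815) and Nr4a3 (0.284 ± 0.0658) were the lowest, and Egr3 and Egr2 were the only neighbours in the order whose libraries overlapped. In hypoxia Atf3 was first at 176.0 ± 21.0 CPM per kilobase, then Egr1 (132.5 ± 36.2) and Nr4a1 (81.5 ± 41.7). Btg2 (19.9 ± 6.19), Ier2 (19.4 ± 1.36), Zfp36 (15.6 ± 4.16), Egr3 (11.5 ± 5.84), Egr2 (7.94 ± 4.75), Nr4a2 (3.46 ± 1.79) and Nr4a3 (1.96 ± 1.66) followed. Nr4a1 and Btg2 were the only neighbours without overlap in hypoxia. With rSRGN the first places were those of Atf3 (220.6 ± 9.10), Egr1 (136.9 ± 12.9) and Nr4a1 (116.2 ± 20.8), and Egr3 came next at 20.5 ± 1.33 CPM per kilobase. It was followed by Btg2 (18.4 ± 0.901), Zfp36 (16.9 ± 1.38), Ier2 (16.3 ± 3.44), Egr2 (9.09 ± 0.856), Nr4a3 (7.46 ± 2.37) and Nr4a2 (6.41 ± 1.59). Atf3 and Egr1, Nr4a1 and Egr3, and Ier2 and Egr2 were the neighbours without overlap in that group.

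Against control, hypoxia + rSRGN gave the same 8 genes called higher, with 24.1% of all genes called higher. The control libraries are shared with the comparison of hypoxia against control, and the values are given side by side. The log2 fold change was 5.54 for Atf3 (5.21 in hypoxia), 5.13 for Egr3 (4.29), 4.72 for Nr4a3 (2.79), 4.12 for Egr2 (3.92), 3.77 for Nr4a1 (3.26), 3.63 for Egr1 (3.58), 2.65 for Nr4a2 (1.75) and 1.16 for Zfp36 (1.05). Ier2 was at 0.26 (adjusted p = 0.0649) and Btg2 at 0.11 (adjusted p = 0.494).

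Other immediate early genes were taken from a list of 40, all of them tested. In hypoxia against control 36 were called higher and 1 lower, and their median log2 fold change was 1.43. These are 90% and 2.5%, against 26.4% and 25.1% of all genes. The largest rises were those of Arc, the synaptic and cytoskeletal immediate early gene (log2 fold change 6.18 ± 0.21, adjusted p = 7.17e-17), of the AP-1 gene Fosb (5.86 ± 0.32, adjusted p = 3.05e-13) and of Gem, a small GTPase that limits calcium channels (3.39 ± 0.18, adjusted p = 1.31e-13). Fos and Jun, which form AP-1, rose by 2.43 ± 0.16 and 2.18 ± 0.08. Homer1, whose short activity-induced isoform is not separated from the long ones in counts per gene, was the gene called lower (-1.29 ± 0.11, adjusted p = 9.03e-10). With rSRGN against hypoxia 7 of the 40 were called higher and 1 lower, with a median of 0.25. These are 17.5% and 2.5%, against 2.27% and 0.859% of all genes. DESeq2 called 6 and 1, and 23 and 5 had an unadjusted p below 0.05 in edgeR. The largest rises were those of Dusp2, a nuclear MAPK phosphatase (1.38 ± 0.44, adjusted p = 0.0361, 46 fragments in all hypoxia libraries and 128 with rSRGN), Arc (1.12 ± 0.13, adjusted p = 3.85e-05) and Ptgs2, the inducible cyclooxygenase (1.05 ± 0.17, adjusted p = 3.60e-04). Gadd45g, a growth arrest gene, was called lower (-0.78 ± 0.10, adjusted p = 4.65e-05), although it was also called higher in hypoxia than in control (22.2 and 125 CPM in the means). Fos was at 0.37 ± 0.14 (adjusted p = 0.0665) and Jun at 0.34 ± 0.07 (adjusted p = 0.00298), both under the fold limit. Homer1, called lower in hypoxia than in control, was among the genes called higher with rSRGN (0.77 ± 0.11, adjusted p = 1.65e-04), a value picked out after it was seen.

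Relatives and partners of the 10 genes were 13 in number, with 6 called higher in hypoxia, 1 lower and a median of 0.44. These are 46.2% and 7.69%, against 26.4% and 25.1% of all genes. Egr4, the remaining EGR gene, had 4 fragments in all control libraries and 29 in hypoxia, and its log2 fold change was 3.03 ± 0.88 (adjusted p = 0.00411). Nab2, a corepressor that EGR proteins induce and that holds them in check, rose from 42.0 to 158 CPM (log2 fold change 1.91 ± 0.10, adjusted p = 6.12e-14). Tob1, a relative of Btg2, fell (-0.85 ± 0.11, adjusted p = 6.32e-07). With rSRGN 0 of the 13 were called in edgeR and in DESeq2. Among all genes 3.13% were called in edgeR, so a count of 0 is near that share. At an unadjusted p below 0.05 in edgeR there were 3. These 3 also had an adjusted p below 0.05, under the fold limit, and were Zfp36l2 (0.46), Nab1 (0.45) and Nab2 (0.36, adjusted p = 0.00976), named because their values were seen.

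The upstream list held 19 transcription factors, coactivators and kinases that act on CArG and CRE sites. In hypoxia 3 were called higher, 5 lower and 11 neither, with a median of -0.13. These shares, 15.8% higher and 26.3% lower, were below and near the 26.4% and 25.1% of all genes. The CREB coactivators Crtc2 and Crtc3 rose (0.91 ± 0.10, adjusted p = 5.16e-08, and 0.72 ± 0.10, adjusted p = 8.41e-07), while Crtc1 and the kinase gene Rps6ka3 (RSK2) fell (-1.21 ± 0.12, adjusted p = 9.92e-09, and -1.11 ± 0.09, adjusted p = 1.54e-10). Srf itself was at -0.26 ± 0.07 (adjusted p = 0.00385), under the fold limit. With rSRGN 0 of the 19 were called in edgeR, near the 3.13% of all genes, and 0 in DESeq2. At an unadjusted p below 0.05 in edgeR there were 5, and Srf was at 0.13 ± 0.07 (adjusted p = 0.260). Activity of these proteins, which is set largely by phosphorylation and location, was not measured.

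Pathways that hold single members of the 10 genes were taken as lists as well. Atf3 is induced with the ATF4 pathway, in which 7 of 10 genes were called higher in hypoxia and 2 lower (median 1.35). These are 70% and 20%, against 26.4% and 25.1% of all genes. Atf4 rose by 1.39 ± 0.08, Ddit3 (CHOP) by 1.79 ± 0.11, Chac1 by 2.14 ± 0.09 and Nupr1 by 2.04 ± 0.08 on the log2 scale, and Vldlr and Ddit4 were called lower (-1.44 and -1.08). With rSRGN 0 of these 10 genes were called in edgeR, near the 3.13% of all genes, and 0 in DESeq2. At an unadjusted p below 0.05 in edgeR there were 3, and Atf4 was at -0.07 and Ddit3 at 0.06. Btg2 is a target of p53, and of 12 other p53 targets 5 were called higher in hypoxia and 1 lower (median 0.52). These are 41.7% and 8.33%, against 26.4% and 25.1% of all genes. The proapoptotic genes Bax and Pmaip1 (1.66 and 1.52) had the largest rises, and Sesn1 (-1.78) was the gene called lower. Cdkn1a (p21) rose by 0.98 ± 0.10, and Mdm2 was at 0.49 ± 0.08, under the fold limit. With rSRGN 0 of the 12 were called in edgeR, near the 3.13% of all genes, and 0 in DESeq2. At an unadjusted p below 0.05 in edgeR there were 7. Of 12 mRNAs that ZFP36 is known to destabilize, 9 could be tested and 6 were called higher in hypoxia and 0 lower (median 1.69). These are 66.7% and 0%, against 26.4% and 25.1% of all genes. The largest rises were those of Ptgs2 (3.05) and the cytokine gene Il6 (2.49). Tnf, Csf2 and Il1b had 37, 5 and 1 fragments over the 9 libraries and were not tested. With rSRGN 1 of the 9, Ptgs2, was called, as given above, while 2.27% of all genes were called higher. Ptgs2 and Myc stand on the list of immediate early genes too, and Ier3 on that of relatives.

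The gene whose pattern over the 9 libraries was most like that of each of the 10 was taken as the smallest root mean square difference of centred log2 CPM among 14257 genes. It was Gem for Egr1 (a difference of 0.17), Errfi1, a feedback inhibitor of EGF receptors, for Nr4a1 (0.22), Smad7, the inhibitor of TGF-beta signalling, for Zfp36 (0.08), Cdk2ap1 for Ier2 (0.07), Hnrnpab for Btg2 (0.11), Prr18 for Egr2 (0.17), Prdm14 for Atf3 (0.25), Nipal1 for Nr4a2 (0.29), the pseudogene Gm8818 for Egr3 (0.42) and Gm49774 for Nr4a3 (0.54). Egr3 and Nr4a3 had no gene as near as the others did. Prr18, Gm8818, Nipal1, Prdm14 and Gm49774 had mean levels of only 1.14 to 3.34 CPM, where the prior count of 2 draws log2 values together. The fitted log2 fold changes in hypoxia against control were 7.84 for Prdm14 (Atf3 5.21) and 5.24 for Prr18 (Egr2 3.92), and Gm8818 had 0 fragments in control.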

How the data were processed

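RNA-seq was measured in 9 libraries of NMVMs from poly(A)-enriched RNA, grouped by the sample labels. The authors deposited fragment counts per gene, without normalization. Per the file headers, paired-end fragments were counted on exons with featureCounts 2.0.1 and GENCODE mouse release 25 (GRCm38), with no strand option. HISAT2 and mm10 are named in the submitters' processing notes. Genes that overlap are therefore uncertain. All 9 columns were used and 0 were left out.

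The tests were run with edgeR 4.0.16 in R 4.3.3 (filterByExpr, TMM, a mean per group, quasi-likelihood test, Benjamini-Hochberg adjustment), and 16762 of 55401 genes were tested. The procedure was tested on simulated data. The alternatives were DESeq2 1.42.0, RLE scaling, library size alone, at least 1 count in all or 10 in every library, no fold limit, a fit of 2 groups, leave-one-out fits and a fit blocked on replicate number. Libraries of one group differed by more than sampling noise (chi-square per degree of freedom 3.63 to 13.1), so no pair was taken for 1 library deposited more than once. Ratios were compared with exact permutation tests in scipy 1.17.1. The gene named as most alike had the smallest root mean square difference of log2 CPM (prior count 2) among genes of at least 1 CPM. In each list, the called genes with the largest rises and falls were named, with Fos, Jun, Srf, Nab2, Atf4, Ddit3, Cdkn1a and Mdm2 whatever their values. Members, lists and rules were chosen with earlier results of these data known. A depth of 16583985 to 22781557 fragments per library gave at least 30 fragments for each of the 10 genes in every library.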

Additional observations from a re-analysis of the deposited data

How the results depend on the processing

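Hypoxia against control gave 8 or 9 of the 10 genes called under all 17 alternatives, and hypoxia + rSRGN against control gave 8. In hypoxia + rSRGN against hypoxia the 3 genes became 1 in DESeq2 and 2 to 5 with a library left out (5 without hypoxia replicate 2). The 525 genes called over the whole table became 2790 without the fold limit and 321 to 699 with a library left out, lowest without hypoxia replicate 3. Without the fold limit Ier2 was also called in hypoxia and Atf3 with rSRGN. The log2 fold change with rSRGN changed sign when a library was left out for Egr1 (-0.10 to 0.29), Egr2 (-0.033 to 0.81), Btg2 (-0.31 to 0.15) and Zfp36 (-0.0038 to 0.36), and so did that of Btg2 in hypoxia against control (-0.040 to 0.42). That of Nr4a3 stayed between 1.59 and 2.89 over all alternatives, with adjusted p of at most 0.0109. The causes were not tested. Scaling by library size alone moved the median of all genes in hypoxia against control from 0.05 to 0.12. The replicate numbers did not pair the libraries (correlation of deviations of same-numbered libraries -0.0374 to 0.0215). With the replicate block 4 of the 10 genes were called with rSRGN, Nr4a1 being added (0.59), and 495 genes over the whole table.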
